A study of Mus musculus with 3 samples.

Results

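The cells described here are 62 single cells of mouse bone marrow that held at least 20 transcript molecules of *Prss34* and *Mcpt8* together, out of 29800 cells that passed the filter on quality. *Prss34* and *Mcpt8* encode serine proteases stored in the granules of mouse basophils, and the working label of the cells was basophil and mast-like. The 62 cells made up 0.208% of all cells and lay in 3 libraries, with 14 in the control, 38 in the young and 10 in the old library. Because *Prss34* and *Mcpt8* chose the cells, and every other gene was measured in the same cells, each contrast with the 29738 other cells is a description of size and carries no test.

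The study sorted CD133+ cells, which carry the protein of *Prom1* at their surface, from the marrow of C57BL/6 mice by flow cytometry and sequenced their RNA on the 10x Genomics Chromium 3′ platform, to follow candidate progenitors of the vessel wall with age. Each library pooled cells of 3 mice. The young and the control library both carry an age label of 3 months and name no treatment. The old library carries a label of 27 months, whereas the design text of the series gives 18.5 months for its old mice and calls the cells intestinal, against the bone marrow of the sample labels. With 1 library per group there was no replicate of any group, so differences between libraries could not be tested, and age cannot be told apart from library.

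Basophils are rare granulocytes that arise in the bone marrow from myeloid progenitors under interleukin 3, in a programme that depends on the transcription factors GATA2 and C/EBPα. They carry the high-affinity receptor for IgE, and when it is cross-linked they release histamine and lipid mediators and secrete interleukin 4. Mast cells share the IgE receptor and carboxypeptidase A3 but mature in tissues, depend on KIT and store chymases and tryptases.

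GATA factors bind short DNA elements that contain GATA, so the 150 bases before the annotated start of the marker genes were read for the letters GATAA, or TTATC for the other strand. Promoters are shown for the genes of the rule and the basophil marker list that held the letters and at least 400 CPM in the 62 cells, where CPM is the number of molecules of a gene per 1000000 molecules, summed over cells. The sequences are from RefSeq on build GRCm38.p6, run 5′ to 3′ on the strand of the gene, and carry the match in capitals.
Prss34: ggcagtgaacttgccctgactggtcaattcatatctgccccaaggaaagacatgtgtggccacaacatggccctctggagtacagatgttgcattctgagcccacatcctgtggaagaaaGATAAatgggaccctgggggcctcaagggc
Ms4a2: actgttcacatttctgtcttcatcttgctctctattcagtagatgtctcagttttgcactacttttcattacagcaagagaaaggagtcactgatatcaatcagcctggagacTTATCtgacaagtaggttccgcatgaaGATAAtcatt
Fcer1a: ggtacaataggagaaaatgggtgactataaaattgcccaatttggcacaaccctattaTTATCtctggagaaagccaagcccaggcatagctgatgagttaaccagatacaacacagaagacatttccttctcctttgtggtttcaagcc
Cd200r3: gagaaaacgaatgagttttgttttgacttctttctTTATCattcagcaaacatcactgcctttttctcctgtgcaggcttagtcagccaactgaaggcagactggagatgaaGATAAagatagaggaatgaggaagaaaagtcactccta
Cpa3: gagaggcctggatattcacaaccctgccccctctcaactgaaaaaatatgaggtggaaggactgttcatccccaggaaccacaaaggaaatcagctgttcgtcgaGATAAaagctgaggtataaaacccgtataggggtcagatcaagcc

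The *Prss34* window lies at chr17:25298244-25298393 on the plus strand, directly before the gene (ENSMUSG00000056399, chr17:25298394-25300165), with the match at position -30 counted to its first base, where -1 is the last base before the start. The *Ms4a2* window is chr19:11623720-11623869 on the minus strand, with matches at -37 and -10. The *Fcer1a* window is chr1:173227230-173227379 on the minus strand, with a match at -92. The *Cd200r3* window is chr16:44943528-44943677 on the plus strand, with matches at -115 and -38, and the *Cpa3* window is chr3:20242182-20242331 on the minus strand, with a match at -45. Of the 12 genes of the rule and the marker list, 7 held the letters in a window of this kind, against 13.3% of all 32851 promoter windows. *Mcpt8* (ENSMUSG00000022157, chr14:56082166-56085273, minus strand) had no match in its window, which says only that these letters are not in it. The matches describe the sequences and are not evidence of binding.

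The libraries differed in depth and in content before any cell was chosen. Among the cells that passed the filter, the median number of UMIs (unique molecular identifiers, each counting 1 captured transcript) was 9572 in the control, 9722 in the young and 13039 in the old library. The young library stood apart in its other cells: 445 of the 555 monocyte-like cells lay in it, and a list of 10 interferon-stimulated genes summed to 1618 CPM there, against 97.1 CPM in the control and 74.2 CPM in the old library. A total of 402 barcode sequences occurred in more than 1 library, and none of the 62 cells carried one of them.

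The cells of the rule made up 0.129% of the control library (exact binomial 95% interval 0.0705% to 0.216%), 0.455% of the young library (0.322% to 0.624%) and 0.0944% of the old library (0.0453% to 0.174%). All intervals given here cover counting error only and not the spread between mice or libraries. The young share lay above the intervals of both other libraries, and the control and old intervals overlapped.

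The rule cut a distribution that was nearly empty around it. Of all cells that passed the filter, 23402 held no UMI of *Prss34* or *Mcpt8*, 5056 held 1, 1244 held 2 to 4, 30 held 5 to 9, and 6 held 10 to 19. The cells just outside held 10, 11, 14, 14, 15 and 15 UMIs, and the cells just inside held 20, 23 and 26. The 2 cells nearest the limit on its inner side came from the old library, held no *Prss34*, and had 148 and 253 UMIs of *Elane*, the neutrophil elastase of promyelocytes. A further 45 cells held 100 UMIs or more. In all, 82.2% of the UMIs of both genes in the data lay in the 62 cells, with 78.9% in the control, 87.0% in the young and 65.1% in the old library.

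The 62 cells fell apart into 2 kinds by *Prss34*. In 51 cells *Prss34* ran from 7 to 1222 UMIs, and in the other 11 it was 0 or 1, so no cell lay between 1 and 7. The 51 cells are called Prss34-high and the 11 cells Mcpt8-only, a split at 5 UMIs that was set after the values had been seen. The control library held 10 Prss34-high and 4 Mcpt8-only cells, the young library 37 and 1, and the old library 4 and 6. Prss34-high cells were thus 0.0921% of the control, 0.443% of the young and 0.0378% of the old library. Their old levels rest on 4 cells, of which 1 held 17901 of the 39896 UMIs and gave 10.55% of them to neutrophil granule genes, and 9 cells of the other libraries also gave more than 5%. The 41 cells under 5% were 8 in the control, 30 in the young and 3 in the old library. Their levels are given beside some of the values and not all, a choice made after the values were seen. Old levels of Prss34-high cells include the granule-rich cell unless stated.

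**Figure D1:**
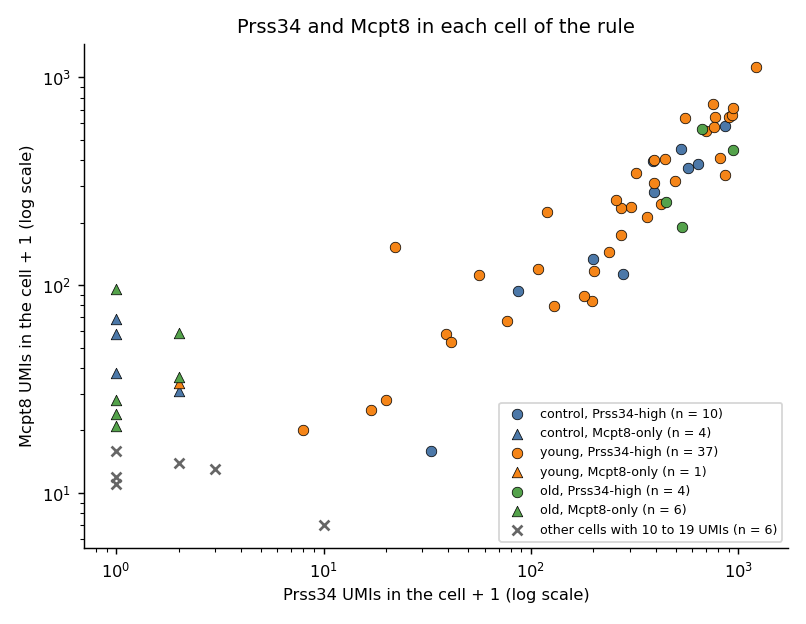
UMIs of *Prss34* (horizontal) and *Mcpt8* (vertical) in each of the 62 cells, both plus 1 on log axes, coloured by library, with circles for Prss34-high and triangles for Mcpt8-only cells. Crosses are the 6 other cells with 10 to 19 UMIs of both genes. The 51 Prss34-high cells form a diagonal from 7 to 1222 *Prss34* UMIs, and the 11 Mcpt8-only cells lie at 0 or 1 on the horizontal axis.

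Per cell, *Prss34* ranged in the Prss34-high cells from 32 to 858 UMIs in the control library (median 389.5), from 7 to 1222 in the young (median 304) and from 447 to 939 in the old library (median 601). *Mcpt8* ranged from 15 to 584 (median 321.5), from 19 to 1122 (median 238) and from 189 to 561 UMIs (median 348.5) in the same order. The ranges of the 3 libraries overlapped for both genes. Summed over the cells, *Prss34* made up 66191 CPM in the control, 50286 CPM in the young and 64869 CPM in the old library, and *Mcpt8* 46779, 39762 and 36269 CPM. In the cells under 5% *Prss34* was at 78567, 60132.5 and 97340 CPM, and *Mcpt8* at 55831, 48311.5 and 54467 CPM. The order of the libraries thus changed for both genes, and none is read from these sums.

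The label was read against 10 basophil markers that the rule did not use, by their levels in each library. Of the 10, 9 reached the minimum of 10 CPM in the Prss34-high or in the other cells, and *Csf2rb2* was under it with 3 UMIs. In the Prss34-high cells 8 of the 9 were at least 4 times higher than in the other cells (the background was 7.71%, the share of all 6851 genes above the minimum), but these 8 were at or below 1.53 CPM in the other cells, reached the minimum through the Prss34-high cells alone and so had to be higher. The count therefore does not check the label, and the counts and medians given below for other lists, which hold genes of the same kind, are descriptions as well. The list summed to 10189.6 CPM in the control, 8329 CPM in the young and 7119 CPM in the old Prss34-high cells, against 147, 139.8 and 103 CPM in the other cells of the same libraries. Within each library the list was thus 69.5, 59.6 and 69.0 times higher. In the cells under 5% it summed to 12314, 9685 and 10775 CPM, so the old library was the lowest only with its granule-rich cell.

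*Fcer1a*, the IgE-binding α chain of the high-affinity receptor, reached 3786 CPM in the control, 1618 CPM in the young and 2181 CPM in the old Prss34-high cells, against 0.436 CPM in all other cells, and was found in 47 of 51 cells. *Ms4a2*, its β chain, reached 867, 959 and 576 CPM, against 1.53 CPM, and was found in 49 cells. *Cpa3*, which encodes carboxypeptidase A3, reached 2885, 3485 and 3484 CPM, against 1.16 CPM, in 49 cells. These 3 genes, whose promoters are printed above, were at high level in every library. *Gata2*, the transcription factor of basophil and mast cell development, reached 650.4, 573 and 376 CPM, against 0.442 CPM. *Cd200r3*, an activating receptor of basophils and mast cells, reached 967, 783 and 251 CPM, against 0.256 CPM. *Cyp11a1*, which starts steroid synthesis from cholesterol, reached 450.3 CPM, 283 CPM and 75.2 CPM, against 0.153 CPM. The old values of the last 3 genes were the lowest of the 3 libraries, both over all Prss34-high cells and over the cells under 5%. In the latter the old values were 591, 273 and 90.9 CPM, from 13, 6 and 2 UMIs. *Gata2* was there at 798 CPM in the control and 699 CPM in the young library.

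To set aside depth, every cell was thinned at random to 2000 UMIs, which left no cell out. *Cpa3* was then seen in 92.2% of the Prss34-high cells (81.1% to 97.8%), *Fcer1a* in 84.3% (71.4% to 93.0%) and *Ms4a2* in 80.4% (66.9% to 90.2%). Free RNA in the droplets can put a few molecules into any cell, and the monocyte-like cells, which should lack these genes, gave 0.18% for *Cpa3* and 0.72% for each of *Fcer1a* and *Ms4a2*. The median depth before thinning was 6348 UMIs in the Prss34-high and 8693 UMIs in the monocyte-like cells. For *Prss34* and *Mcpt8* themselves the background was higher, with 2.70% and 1.98% of the monocyte-like cells.

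*Hdc*, histidine decarboxylase, which makes histamine, was the basophil marker under the 4-fold limit. It reached 367 CPM in the control, 462 CPM in the young and 150.4 CPM in the old Prss34-high cells, against 140.2, 129 and 96.3 CPM in the other cells, a pooled ratio of 3.49 (2.97 to 4.08). After thinning it was seen in 60.8% of the Prss34-high, 4.68% of the monocyte-like and 22.4% of all other cells, so the other cells of this sort held *Hdc* well above the background of monocyte-like cells.

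The mast cell side of the label was not borne out. Of 10 mast cell markers, 9 were at 0 UMIs in all 62 cells, among them the chymases *Cma1* and *Mcpt4*, the tryptases *Tpsb2* and *Tpsab1*, the receptor *Mrgprb2* and the transcription factor *Mitf*. In the 618144 UMIs of the 62 cells, 3 UMIs would be 4.85 CPM, which is used here as a fixed limit for a count of 0 and is not an exact interval. The tenth, *Kit*, the stem cell factor receptor, gave 12.8 CPM in the Prss34-high cells, from 5 UMIs in 3 cells of the young library, against 7.18 CPM in the other cells. Among all 29800 cells, 9 held any UMI of these chymases and tryptases, none of them held 5, and none was a cell of the rule.

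**Figure D2:**
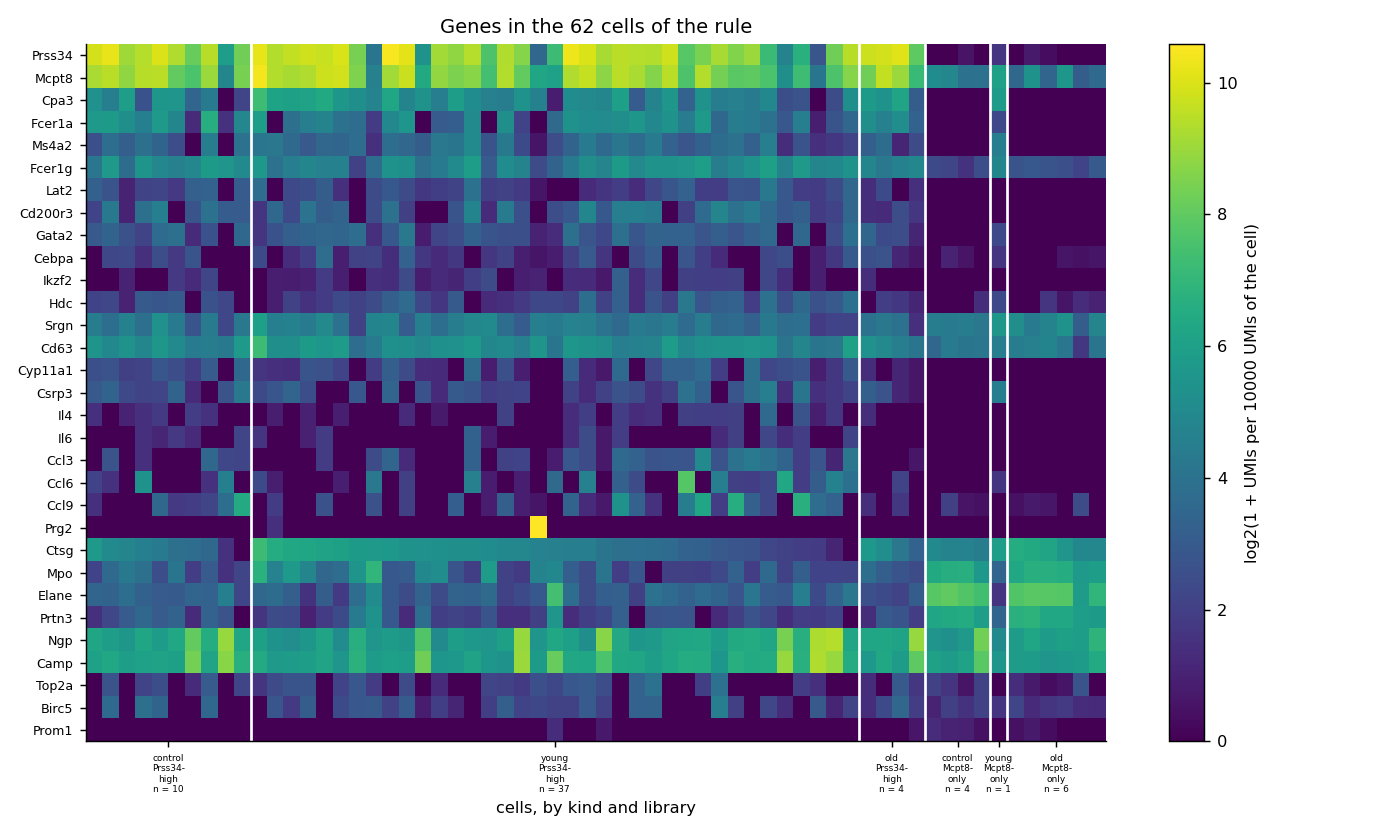
Level of 31 genes (rows) in each of the 62 cells (columns), as log2 of 1 plus UMIs per 10000 UMIs of the cell, with cells grouped by kind and library and ordered by *Ctsg* within a group. The rows of *Cpa3*, *Fcer1a*, *Ms4a2*, *Cd200r3* and *Gata2* are filled in most of the 51 Prss34-high cells and empty in 10 of the 11 Mcpt8-only cells. Those 10 cells carry *Elane*, *Mpo* and *Prtn3*. The row of *Fcer1g*, which lies between them, is filled in both kinds of cell. *Prg2* is bright in 1 young cell, with 2 UMIs in another.

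Over all 62 cells, 307 of 6468 genes above the minimum were at least 4 times higher than in the other cells (4.75%) and 53 at least 4 times lower (0.819%). In 184 and 2 of these the whole counting interval lay past the limit of 4, which is a limit of size and not a test. In the Prss34-high cells alone 528 genes were at least 4 times higher (7.71%, as above) and 116 at least 4 times lower (1.69%). The median log2 ratio of all tested genes was 0.39 in the Prss34-high cells and not 0, and the list medians below are to be read beside it. Whether reads were counted by strand is not stated, so the levels of genes that overlap an annotated gene on the other strand cannot be told apart from those of that partner. Of the genes with levels or ratios given here these are *Alox5ap*, *Ccl6*, *Cd244*, *Cd300lf*, *Cebpa*, *Cebpb*, *Ear2*, *Gpr34*, *Igfbp7*, *Ikzf2*, *Il3ra*, *Il4ra*, *Itgb2l*, *Lat2*, *Lyn*, *Mki67*, *Mpo*, *Ms4a6c*, *Prom1*, *Prtn3*, *Ptgs1*, *Runx1*, *Slc18a2* and *Top2a*.

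The IgE receptor and its signalling chain were unevenly represented. Of 18 listed genes 16 passed the minimum, 5 were at least 4 times higher and none was 4 times lower, with a median log2 ratio of 0.79. Besides the α and β chains, the adaptor *Lat* reached 115 CPM, against 0.787 CPM in the other cells, and the adaptor *Lat2* 341 CPM, against 4.29 CPM. *Lat2* was found in 45 of 51 cells, with 467 CPM in the control, 338 CPM in the young and 175 CPM in the old library. The γ chain *Fcer1g*, which other Fc receptors of myeloid cells also use, was abundant everywhere, with 2623 CPM against 1489 CPM, a ratio of 1.76 (1.66 to 1.87). The kinases that act first on the receptor did not stand out, as *Lyn* had a ratio of 0.843 (0.515 to 1.30) and *Syk* one of 0.770 (0.332 to 1.52).

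Of 19 cytokine receptors 12 passed the minimum, of which 5 were at least 4 times higher and 2 at least 4 times lower, with a median log2 ratio of 1.37. *Il3ra*, the specific chain of the interleukin 3 receptor, reached 133 CPM in the control, 162 CPM in the young and 50.1 CPM in the old Prss34-high cells, against 17.6 CPM in the other cells. *Il1rl1*, the receptor of interleukin 33, reached 38.5 CPM from 15 UMIs in 12 cells, against 0.265 CPM. *Il18r1* and *Il18rap*, which pair as the interleukin 18 receptor, had ratios of 9.60 (5.76 to 15) and 4.79 (3.31 to 6.70). *Crlf2*, the receptor of thymic stromal lymphopoietin, had a ratio of 3.75 (2.98 to 4.67). The lower genes were receptors of the neutrophil line and of interleukin 4: *Csf3r*, the G-CSF receptor, had a ratio of 0.221 (0.0601 to 0.565) from 4 UMIs, all in cells above 5% granule UMIs, and *Il4ra* a ratio of 0.245 (0.0297 to 0.887) from 2 UMIs. *Csf2rb*, the signalling chain that interleukin 3, interleukin 5 and GM-CSF share, had a ratio of 1.41 (0.904 to 2.1).

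Of 22 transcription factors 18 passed the minimum, 7 were at least 4 times higher and none was 4 times lower, with a median log2 ratio of 1.31. *Cebpa*, which encodes C/EBPα, reached 267 CPM in the control, 242 CPM in the young and 226 CPM in the old Prss34-high cells, against 11.6 CPM in the other cells, and 252, 266 and 364 CPM in the cells under 5% granule UMIs. *Ikzf2*, the zinc finger factor Helios, reached 83.4, 145 and 25.1 CPM, against 0.647 CPM. *Gata1*, which *Gata2* precedes in several blood lineages, reached 33.4 CPM from 13 UMIs in 10 cells, against 0.714 CPM, and *Tal1* 23.1 CPM from 9 UMIs, against 1.44 CPM. *Runx1* had a ratio of 4.92 (3.51 to 6.70). *Cebpe*, needed for the secondary granules of neutrophils, had a ratio of 0.405 (0.343 to 0.476), and *Spi1*, which encodes PU.1, one of 0.523 (0.426 to 0.636). In the cells under 5% granule UMIs *Cebpe* was at 189, 257 and 90.9 CPM, against 200.1, 404 and 501 CPM in all Prss34-high cells. *Cebpb* was level, with 1.07 (0.905 to 1.25).

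Among 14 genes of histamine storage, granule matrix and exocytosis, 13 passed the minimum and 3 were at least 4 times higher, with a median log2 ratio of 0.86. *Slc18a2*, the transporter that loads histamine into granules, reached 33.4 CPM from 13 UMIs in 11 cells, against 0.183 CPM. *Srgn*, the proteoglycan core that holds granule proteases, reached 1918 CPM in the control, 1839 CPM in the young and 952 CPM in the old Prss34-high cells, against 593 CPM in all other cells. *Cd63*, a tetraspanin of the granule membrane, reached 3352, 3626 and 2331 CPM, against 1219 CPM. The matrix and membrane genes were thus shared with the other cells at a ratio under 4, of 2.97 (2.75 to 3.20) and 2.83 (2.68 to 2.99).

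Among 11 lipid mediator enzymes 7 passed the minimum. *Alox15*, the 12/15-lipoxygenase, reached 200.1 CPM in the control, 96.6 CPM in the young and 25.1 CPM in the old Prss34-high cells, against 0.113 CPM in the other cells, and was the 1 enzyme at least 4 times higher. *Alox5*, which starts leukotriene synthesis, had a ratio of 3.51 (2.73 to 4.44), and its partner *Alox5ap* one of 1.40 (1.29 to 1.51). *Ptgs1*, cyclooxygenase 1, was the 1 enzyme at least 4 times lower, with 1 UMI in the 51 cells, or 2.57 CPM, against 54.5 CPM. The list median log2 ratio was 0.48.

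Cytokines and chemokines were each seen in part of the cells. Of 20 genes 10 passed the minimum and 8 were at least 4 times higher, with a median log2 ratio of 5.35. *Il13*, *Il5*, *Il3*, *Tnf*, *Csf2* and *Ccl2* were among 9 at 0 UMIs, where the fixed limit of 3 UMIs would be 7.70 CPM. *Il4*, the cytokine basophils are known for, gave 35 UMIs in 26 of the 51 cells, with 133 CPM in the control, 89.7 CPM in the young and 25.1 CPM in the old library, against 0.0244 CPM in the other cells. *Il6* gave 24 UMIs in 20 cells, with 83.4 CPM in the control and 65.6 CPM in the young library and no UMI in the 4 old cells. After thinning, *Il4* was seen in 21.6% of the Prss34-high cells (11.3% to 35.3%) and in no monocyte-like cell.

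The chemokine *Ccl3* was found in 32 cells and reached 217 CPM in the control, 342 CPM in the young and 25.1 CPM in the old library, against 0.424 CPM in the other cells. *Ccl6* and *Ccl9*, chemokines of myeloid cells, were concentrated in few cells: 5 cells held 64.4% of the *Ccl6* UMIs and 56.1% of the *Ccl9* UMIs. *Ccl9* reached 767, 649 and 75.2 CPM, against 17.1 CPM in the other cells, and *Ccl6* 667, 869 and 75.2 CPM, against 38.9 CPM. Neither is particular to these cells by detection, since after thinning *Ccl9* was seen in 37.3% of the Prss34-high and 56.0% of the monocyte-like cells, and *Ccl6* in 39.2% and 51.9%. The list summed to 2251 CPM in the control, 2474 CPM in the young and 476 CPM in the old Prss34-high cells, where 3 cells under 5% granule UMIs gave 682 CPM and no UMI of *Ccl3*. *Csf1*, the growth factor of macrophages, reached 66.7 CPM from 26 UMIs, and *Hgf*, hepatocyte growth factor, 51.3 CPM from 20 UMIs, against 2.35 and 1.10 CPM in the other cells.

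**Figure D3:**
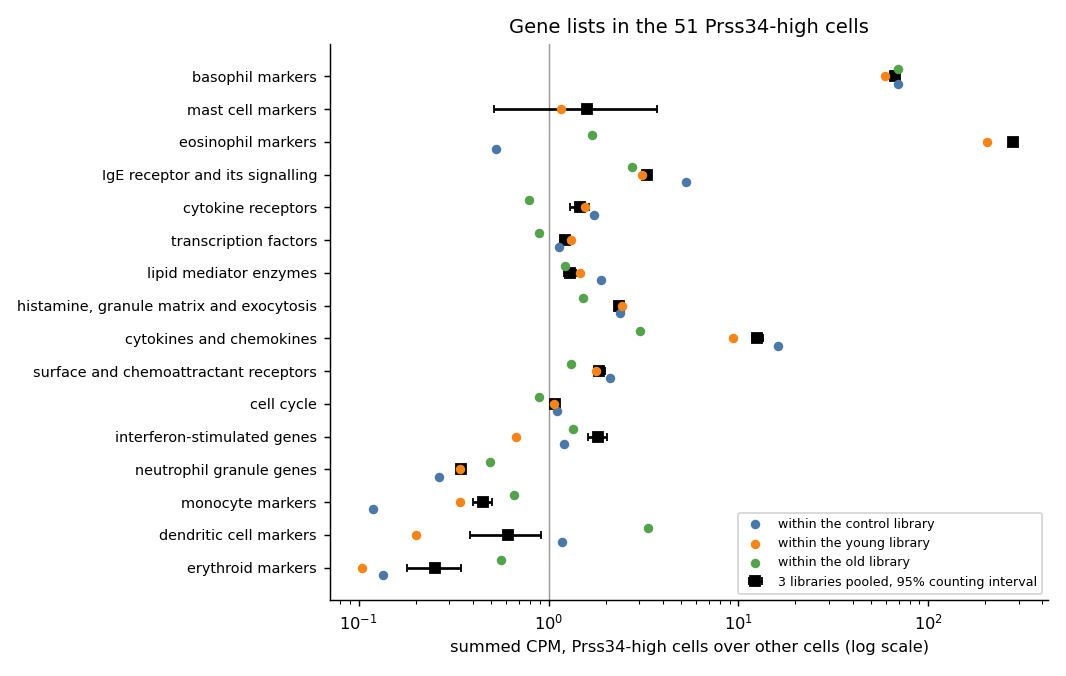
Summed CPM of 16 gene lists in the 51 Prss34-high cells over that in the other cells, on a log axis, with black squares and 95% counting intervals for the pooled libraries and coloured points for the ratio within each library. Basophil markers lie near 67 in the pool and between 59.6 and 69.5 within the libraries, cell cycle genes lie near 1, neutrophil granule genes lie below 1 in every library, and the eosinophil value is set by 1 young cell.

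Of 22 surface and chemoattractant receptors 18 passed the minimum, 7 were at least 4 times higher and 2 at least 4 times lower, with a median log2 ratio of 1.25. *Itgb7*, a homing integrin chain, reached 123 CPM against 5 CPM, *Cd244* 64.2 CPM against 1.56 CPM, and *C3ar1*, the receptor of complement C3a, 46.2 CPM from 18 UMIs against 0.0824 CPM. *Cd200r1* had a ratio of 11.6 (8.19 to 16.0). *Itga2*, whose protein CD49b is used to sort basophils, and *Ptgdr2* were at 0 UMIs.

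*Prom1*, whose protein CD133 was the basis of the sort, was 1 of the 2 lower genes of that list. The Prss34-high cells held 4 *Prom1* UMIs in 3 cells, or 10.3 CPM, against 48.1 CPM in the other cells, a ratio of 0.213 (0.0581 to 0.547). The control cells held none, the young 10.4 CPM and the old 25.1 CPM. All 4 UMIs lay in cells that gave more than 5% of their UMIs to neutrophil granule genes, and the 41 cells under 5% held none. After thinning, *Prom1* was seen in 0 of 51 Prss34-high cells, in 1.80% of monocyte-like cells and in 8.50% of all other cells, against 5.88%, 8.83% and 36.8% before thinning. Transcript and surface protein were not measured in the same cells, so the reason for their passage through the gate was not tested. Of 6 genes the study followed, which include *Prom1*, *Fdps* and *Anxa1*, none was at least 4 times higher, and *Fdps*, of the mevalonate pathway, had a ratio of 0.405 (0.288 to 0.553) with 66.7 CPM in the control, 69.0 CPM in the young and 376 CPM in the old Prss34-high cells. A single old cell, with 10.55% of its UMIs in neutrophil granule genes, held 12 of the 15 old *Fdps* UMIs, and each of the other 3 old cells held 1, or 136 CPM together.

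By the rule for the highest ratios, further genes stood beside the listed markers. *Csrp3*, known as a LIM protein of striated muscle, was found in 43 of 51 cells, with 517 CPM in the control, 376 CPM in the young and 276 CPM in the old library, against 0.333 CPM in the other cells. In the cells under 5% granule UMIs *Csrp3* was at 567, 419 and 455 CPM. *Rnase12*, of the ribonuclease A family, reached 250.2, 328 and 401 CPM, against 0.171 CPM. *Itga2b*, the integrin chain of platelets, was found in 38 cells with 350.2, 207 and 125 CPM, against 0.555 CPM. *Lag3*, an inhibitory receptor of lymphocytes, reached 200.1, 138 and 50.1 CPM, against 0.415 CPM. *Cdh1*, which encodes E-cadherin, reached 167, 65.6 and 50.1 CPM, against 0.0915 CPM. These genes are known from other tissues, and each had UMIs in all 3 libraries, though the old values of *Lag3* and *Cdh1* rest on 2 UMIs each. *Gpr34* and *Igfbp7* had 108 and 92.4 CPM.

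Since *Itga2b* and *Pecam1* also mark platelets and vessel cells, those lists were read in full. Of 6 megakaryocyte markers *Itga2b* alone passed the minimum, 3 were at 0, and the list summed to 350.2 CPM in the control, 221 CPM in the young and 125 CPM in the old Prss34-high cells. Of 6 endothelial markers *Pecam1* alone passed it, with 51.3 CPM from 20 UMIs in 18 cells against 2.74 CPM, and 4 of the 6 were at 0. Of 8 monocyte markers 5 passed, the list summed to 183, 918 and 978 CPM against 1540.2, 2689 and 1494 CPM in the other cells, *Ly6c2* was its most abundant gene and *Csf1r* was at 0. In the cells under 5% granule UMIs the list summed to 210.1, 723 and 546 CPM. *Ms4a6c* was its 1 gene at least 4 times higher, with 226 CPM against 27.9 CPM over the pooled libraries. It gave 33.4 CPM from 2 UMIs in the control, 276 CPM from 80 UMIs in the young and 150 CPM from 6 UMIs in the old Prss34-high cells. The pooled ratio thus rests mostly on the young library, which also held most of the monocyte-like cells.

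Genes with the lowest ratios over all 62 cells included markers of other blood cells. *Cd74*, of antigen presentation, had 4.85 CPM from 3 UMIs against 53.7 CPM in the other cells, where the young library alone held 187 CPM. *Hbb-bs* and *Hba-a1*, which encode haemoglobin chains, had ratios of 0.117 and 0.121 and were the only 2 genes whose whole interval lay below the limit, though reads of *Hba-a1* cannot be separated with certainty from those of its near copy *Hba-a2*. *Gm5483* had the lowest ratio, 0.0890, from 3 UMIs that lay in 1 cell. *Itgb2l*, *Wfdc17*, *Mapk13*, *Cd300lf* and *Stfa1* had ratios between 0.112 and 0.206.

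All Prss34-high cells held UMIs of neutrophil granule genes, which were also found in cells of other types. After thinning, *Ngp* was seen in 100% of both the Prss34-high and the monocyte-like cells, and *Elane* in 76.5% (62.5% to 87.2%) and 82.5% (79.1% to 85.6%). *Mpo* was seen in 80.4% (66.9% to 90.2%) and 57.8% (53.6% to 61.99%). How much of this was free RNA was not tested. The list of 14 genes summed to 37907 CPM in the control, 45431 CPM in the young and 60683 CPM in the old Prss34-high cells, against 142468, 133642 and 123719 CPM in the other cells. Its most abundant gene was *Camp* in the control and young Prss34-high cells, with 13091 and 15392 CPM against 12774.5 and 14668 CPM of *Ngp*, and *Ngp* in the old, with 25917 against 14513 CPM. The old sum rests in part on the 1 granule-rich cell, without which the 3 other old cells gave 24187 CPM, and no order of the libraries is read from these sums. Within the list, *Elane* had a ratio of 0.219 (0.201 to 0.238), *Prtn3* 0.255 (0.225 to 0.288), *Ngp* 0.302 (0.294 to 0.310) and *Camp* 0.333 (0.324 to 0.341). *Mpo*, myeloperoxidase, had a pooled ratio of 0.984 (0.916 to 1.06), and *Ctsg*, cathepsin G, was higher with 2.62 (2.47 to 2.77). *Mpo* was at 884 CPM in the control, 2377 CPM in the young and 677 CPM in the old Prss34-high cells. The young cells held 689 of its 769 UMIs. The members of the list thus differed in direction, and its median log2 ratio was -1.58. *Ctsg* was seen after thinning in 88.2% of the Prss34-high and 42.0% of the monocyte-like cells.

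The granule list took under 3% of the UMIs in 38 of the Prss34-high cells (median 2.27%), 3% to 5% in 3 cells, and 6.91% to 15.6% in 10 cells. For comparison the median was 1.94% in the 555 monocyte-like cells and 14.4% in all other cells. The 10 cells with the larger share were deeper, with a median of 11904.5 UMIs against 6055 in the 38 cells, and held *Prss34* at 23754 CPM against 68532 CPM. Control cells made up 2, young cells 7 and old cells 1 of the 10. Whether some of these 10 droplets held a second cell was not tested.

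**Figure D4:**
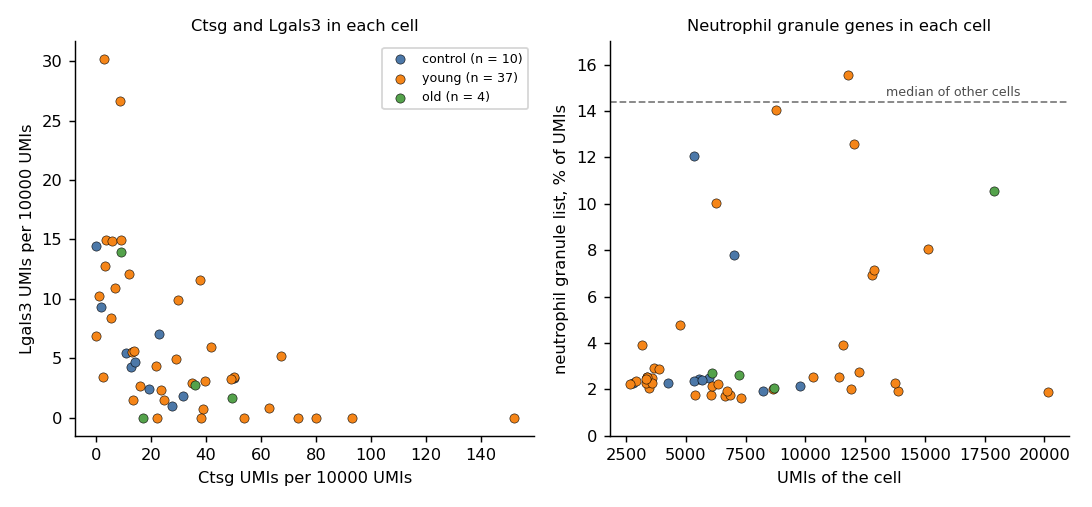
Each point is 1 of the 51 Prss34-high cells, coloured by library. Left, *Ctsg* against *Lgals3*, both as UMIs per 10000 UMIs of the cell, where cells with the most *Ctsg* hold little *Lgals3* (rho -0.69). Right, the share of UMIs in the 14 neutrophil granule genes against the UMIs of the cell, where 38 cells lie under 3% and 10 lie between 6.91% and 15.6%, with the median of the other cells (14.4%) as a dashed line.

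*Ctsg* varied between Prss34-high cells but was not among the 12 genes with the largest spread. The other genes were ranked by their likeness to it, and no rule for named genes set this choice. Of 443 genes with at least 300 CPM, those whose share of a cell's UMIs went most closely with that of *Ctsg* over the 51 cells were *Calr* (rho 0.76), *Ssr4* (0.69), *Hspa5* (0.65) and *Cpa3* (0.64), of which the first 3 encode proteins of the endoplasmic reticulum. At the other end stood *Lgals3* (-0.69), *Tmsb4x* (-0.64), *Cd52* (-0.61) and *Rac2* (-0.60). Basophil markers were spread between these ends, with 0.24 for *Ms4a2*, 0.09 for *Fcer1a*, 0.04 for *Gata2* and -0.22 for *Cd200r3*. In the 41 cells under 5% neutrophil granule UMIs the values were 0.74 for *Calr*, 0.57 for *Cpa3* and -0.70 for *Lgals3*. These are descriptions over cells that share libraries and mice, and the depth of the cell moved with them: its rho was 0.34 with *Ctsg*, 0.40 with *Calr*, -0.52 with *Lgals3* and -0.68 with *Tmsb4x*. *Ccl3* and *Fcer1a* were likewise higher in shallow cells, with -0.57 and -0.42, whereas *Prss34* had -0.14. The part of depth in these relations was not tested.

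The genes with the largest spread over the Prss34-high cells beyond counting noise, besides the 2 of the rule, were *Prg2*, *S100a8*, *S100a9*, *Ngp*, *Camp*, *Ccl6*, *Elane*, *Lyz2*, *Prg3* and *Ifitm6*. *Prg2* and *Prg3* were found in young cells only, and *Ifitm6* stood at 600.4 CPM in the control, 252 CPM in the young and 4035 CPM in the old Prss34-high cells, against 1889.7, 882 and 3662 CPM in the other cells of the same libraries. In the cells under 5% granule UMIs *Ifitm6* was at 105, 33.3 and 227 CPM.

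A list of 19 cell cycle genes was at about the level of the other cells. Its summed level was 1.11 times that of the other cells in the control, 1.07 times in the young and 0.890 times in the old library. In the cells under 5% granule UMIs it summed to 3719, 3625 and 3546 CPM, against 2861, 3071 and 2985 CPM in the other cells. The old level thus lay below that of the other cells only with its granule-rich cell. None of the listed genes was 4 times higher or lower, and the median log2 ratio of the list was 0.10. Per cell the list ranged from 2.91 to 96.1 UMIs per 10000, with a median of 26.2 against 27.5 in the other cells. Below 15 lay 17 cells with a median depth of 3648 UMIs, and at 30 or above lay 23 cells with a median depth of 7300 UMIs, so the cells low in cell cycle genes were the shallower ones. After thinning, *Top2a* or *Mki67* was seen in 47.1% of the Prss34-high cells (32.9% to 61.5%) and 41.5% of the other cells, against 64.7% and 76.4% before thinning.

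The interferon list in the Prss34-high cells followed their library. It summed to 117 CPM in the control, 1094 CPM in the young and 100.3 CPM in the old cells, against 97.1, 1618 and 74.2 CPM in the other cells. Pooled, the ratio was 1.82, but within the libraries it was 1.20, 0.676 and 1.35, since 37 of the 51 cells came from the young library. Of the 10 genes 9 passed the minimum and none was at least 4 times higher or lower.

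The eosinophil genes past the limit came almost wholly from 1 cell. Of 9 listed genes 5 passed the minimum and 3 were at least 4 times higher in the Prss34-high cells, *Prg2*, *Prg3* and *Epx*, which encode eosinophil granule proteins. A young cell of 20146 UMIs, the deepest of the 51, held 3101 UMIs of *Prg2*, 15.4% of its total, with 119 of *Prg3* and 76 of *Epx*. The other 50 cells together held 2, 1 and 1 UMIs of these genes. *Siglecf* gave 7 UMIs in 5 of the 51 cells and *Ear2* 6 UMIs in 3, with ratios of 3.76 and 0.826. The same cell held 152 UMIs of *Mcpt8*, 49 of *Cpa3* and 21 of *Prss34*, and none of *Fcer1a* or *Cd200r3*. Outside the rule 4 cells held at least 20 *Prg2* UMIs, at most 688. Whether the cell was a single cell was not tested.

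The 11 Mcpt8-only cells went against the label in all but 1 case. In 10 of them *Elane* ran from 148 to 796 UMIs, and *Ms4a2*, *Fcer1a*, *Gata2*, *Cpa3* and *Cd200r3* were all at 0. These 10 cells held 20 to 95 UMIs of *Mcpt8* and were deep, with 13944 to 34992 UMIs. The remaining cell, from the young library, was shallow with 4964 UMIs and held 33 UMIs of *Mcpt8*, 27 of *Cpa3*, 11 of *Ms4a2*, 11 of *Csrp3*, 2 of *Gata2* and 1 of *Elane*. By these genes it resembled the Prss34-high cells, though it held 1 UMI of *Prss34*.

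The 11 cells were set beside the 6863 other cells with at least 100 *Elane* UMIs. Their median depth was 20129 UMIs in the 11 cells and 14532 UMIs in those cells. *Elane* was at 18603 CPM in the 11 cells and 17412 CPM in those cells, *Prtn3* at 7704 and 6399 CPM, and *Mpo* at 7879 and 5485 CPM. Since *Elane* chose the comparison cells, its level there is set in part by that limit and nothing is read from its likeness. *Mcpt8* was at 2114 CPM against 25.7 CPM, which the rule fixes. Granule genes of later neutrophil stages were lower, with *Ngp* at 8894 against 21456 CPM and *Camp* at 7717 against 24567 CPM. *Prom1* was at 48.1 against 68.1 CPM. Of 6373 genes above the minimum, 95 (1.49%) were at least 4 times higher and 67 (1.05%) at least 4 times lower, and the basophil list had 2 higher genes among 3 that passed, both carried by the young cell. The cells of this kind are therefore described by their genes, *Elane* and *Mcpt8*, and are not called basophils here.

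Outside the 62 cells *Prss34* and *Mcpt8* were found at low level in all libraries, in different proportions. In the other cells *Prss34* was at 7.06 CPM in the control, 22.2 CPM in the young and 2.87 CPM in the old library, and *Mcpt8* at 10.1, 25.9 and 13.9 CPM. The ratio of *Mcpt8* to *Prss34* UMIs was 1.43 (1.30 to 1.57), 1.17 (1.10 to 1.24) and 4.84 (4.34 to 5.41). In the Prss34-high cells it was 0.707 (0.673 to 0.742), 0.791 (0.772 to 0.810) and 0.559 (0.524 to 0.597). Both genes chose the cells, the split at 5 *Prss34* UMIs took the cells with *Mcpt8* alone out of the latter, and the limit of 20 UMIs bounds the former, so these ratios are given side by side and nothing is read from their difference. Among the other cells with at least 100 *Elane* UMIs the ratio was 2.64 (2.26 to 3.09) in the control, 1.36 (1.21 to 1.53) in the young and 13.1 (10.7 to 16.3) in the old library. *Mcpt8* there was at 16.1, 28.8 and 32.7 CPM, and in the old library it was seen in 36.5% of such cells, against 3.92% for *Prss34*.

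**Figure D5:**
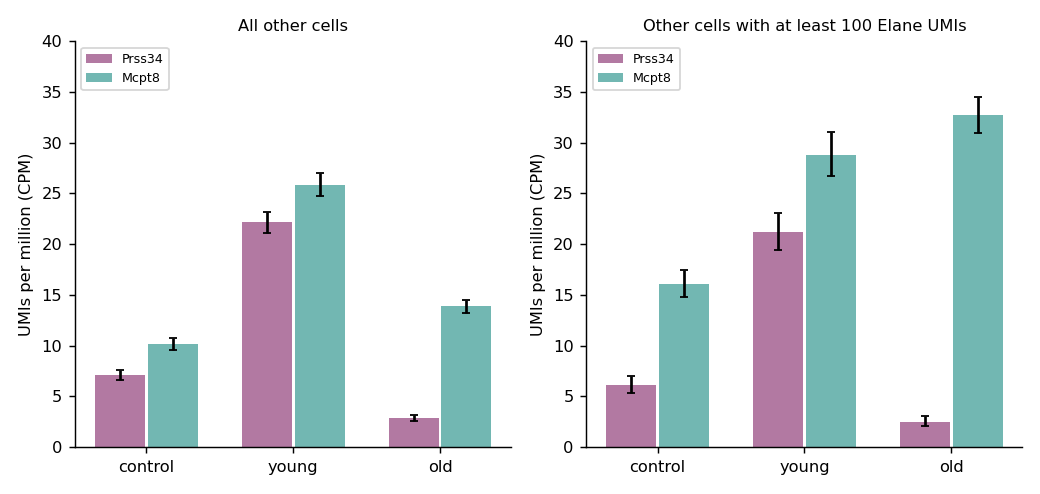
*Prss34* and *Mcpt8* in CPM, summed over cells outside the rule, by library, for all other cells (left) and for other cells with at least 100 *Elane* UMIs (right), with exact 95% Poisson intervals. In the old library *Mcpt8* stands at 13.9 and 32.7 CPM and *Prss34* at 2.87 and 2.49 CPM, while in the young library the genes lie closer together.

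Few cells with the IgE receptor escaped the rule. Among the other cells, 4 held at least 5 UMIs of *Ms4a2* and *Fcer1a* together, 1 in the control and 3 in the young library, with 3, 2, 14 and 14 UMIs of the rule's genes. The highest *Prss34* count outside was 9 UMIs and the highest *Mcpt8* count 15.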

How the data were processed

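CD133+ cells sorted from mouse bone marrow were profiled in 3 libraries with the 10x Genomics Chromium 3′ v2 chemistry. The submitters' processing notes name STAR, Cell Ranger 2.1.0 and build mm10. The deposited values are raw UMI counts per gene and cell for 27998 genes, not normalized by the authors, and whether counting used strand is not given in the sources used here. A UMI counts a molecule at its 3′ end, so CPM was not scaled by length. Deposited totals were 108985799 UMIs in 10869 cells (control), 81434722 in 8362 (young) and 138030352 in 10597 (old).

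Cells with at least 200 genes and at most 20% mitochondrial UMIs were kept, which removed 15, 9 and 4 cells. Counts were summed over cells and divided by the summed UMIs. Genes at 10 CPM or more in either group were compared, and 4 times was the limit of size. Intervals are exact, at 95%: conditional binomial for ratios, Poisson for levels and Clopper-Pearson for shares. Named genes were all genes of the lists, the 20 highest ratios at 50 CPM or more in the 62 cells, the 10 lowest at 50 CPM or more in the other cells, and the 12 most variable at 100 CPM or more. Monocyte-like cells held at least 4 of 6 monocyte markers. No doublet caller was run. Cells above the 95th percentile of UMIs were removed as an alternative. Counts of genes that differ between libraries were planned for at least 20 cells of the rule in each, a number the control and old library did not reach, and were not computed. Values by library are given side by side. The cells, the lists and the rules were chosen with earlier results of these data known, and the split at 5 *Prss34* UMIs and the limit of 5% granule UMIs after the values were seen. Gene positions are from GENCODE M21 and promoters from RefSeq, where all 12 genes looked up were matched. The scripts (pandas 2.3.3, scipy 1.17.1, matplotlib 3.10.9 and numpy 2.4.6 under Python 3.11.15) were tested on simulated data.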

Additional observations from a re-analysis of the deposited data

How the results depend on the processing

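The 307 genes at least 4 times higher in the 62 cells became 468 without cells outside the 5th to 95th percentile of UMIs, 514 with the rule set at 0.5% of a cell's UMIs, 528 in the Prss34-high cells, 81 at a minimum of 50 CPM, 1221 with no minimum and 184 by the whole interval. The 53 lower genes became 91, 133, 116, 17, 92 and 2 in the same order, 80 without cells above the 95th percentile of their library and 94 at a limit of 40 UMIs. Leaving out 1 library gave 358 to 384 higher and 75 to 89 lower genes, with 84 without the old and 89 without the young library. The summed cell cycle ratio, 0.992 over the 62 cells, was 1.15 after trimming, 1.07 at 0.5%, 1.08 in the Prss34-high cells and 0.912 to 1.07 without 1 library. The neutrophil granule ratio, 0.392, was 0.372, 0.319 and 0.346 under the same 3 settings, 0.362 without the deepest cells, 0.403 with libraries weighted equally, 0.468 at 10 UMIs, 0.346 at 40 UMIs and 0.352 to 0.441 without 1 library. The share of the old library was 0.0378% at 0.5% and for Prss34-high cells. The cell cycle ratio thus lay on either side of 1, and the granule ratio stayed below 1 in every setting. The median depth of the 62 cells over that of the others, 0.657 (0.557 to 1.05), was between 0.571 and 0.779 in the pooled settings, but 0.679 within the control, 0.666 within the young and 1.45 within the old library, where 6 of the 10 cells are Mcpt8-only. The Prss34-high and whole-interval settings, and the total without the rule's and neutrophil granule genes (338 higher and 69 lower), were chosen after seeing the data. Counts of genes that differ between libraries were not computed under any setting, as 10 UMIs still gave 15 control and 13 old cells. No paired analysis was possible because each group has 1 library. At 4 old Prss34-high cells, a gene at 0 there may have been missed.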
